A study of Homo sapiens with 10 samples.

Results

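The 7 common reference genes, GAPDH, ACTB, TBP, HPRT1, YWHAZ, PPIA and GUSB, were followed across the RNA sequencing libraries of a study of the RNA-binding protein DAZL in human germ cell-like cells. They were chosen by name, and all 7 were found among the 65003 entries of the deposited expression table. The transcript assays of the study were expressed relative to GAPDH, so the question was how far each reference held its level and how other genes moved when they were divided by it. The libraries came from H9, an established human embryonic stem cell line, with 2 control and 2 oeDAZL libraries. The labels call the control cells wild type, spontaneously differentiated cells, and call the oeDAZL cells hPGCLCs (human primordial germ cell-like cells) that overexpress DAZL. The study's methods for overexpression describe differentiation with BMP4 and BMP8a, transduction with lentivirus carrying DAZL or a GFP control, and collection by sorting. The labels leave unsettled whether BMPs and a GFP virus were also given to the control cells of the table, so the overexpression, the differentiation and the virus cannot be told apart in the comparison. The labels do not say whether libraries of a group came from separate cultures, and P-values then measure only the spread between these libraries, which may be technical.

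A reference gene is a transcript that is taken to be equally abundant in all samples, so that dividing by it removes differences in input RNA and in reverse transcription. The usual choices are genes that nearly all cells use. GAPDH encodes glyceraldehyde-3-phosphate dehydrogenase, an enzyme of glycolysis, and ACTB encodes the cytoskeletal β-actin. TBP is the TATA-binding protein of the transcription factor complex TFIID, and HPRT1 salvages purine bases. YWHAZ is the ζ isoform of the 14-3-3 adaptor proteins, PPIA is cyclophilin A, a peptidyl-prolyl isomerase, and GUSB is the lysosomal enzyme β-glucuronidase. Any change in a reference enters every ratio made with it, with the opposite sign.

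In hg38 with GENCODE 44, GAPDH (ENSG00000111640.15 in the table) lies on the plus strand of chromosome 12 from 6534512 to 6538374, with 9 exons in its canonical transcript. ACTB (ENSG00000075624.15) lies on the minus strand of chromosome 7 from 5526409 to 5563902, with 6 exons. PPIA (ENSG00000196262.14) and GUSB (ENSG00000169919.17) are on the same chromosome, PPIA from 44796680 to 44824564 on the plus strand with 5 exons and GUSB from 65960684 to 65982215 on the minus strand with 12. YWHAZ (ENSG00000164924.18) has 6 exons in its canonical transcript. TBP (ENSG00000112592.14) is on the plus strand of chromosome 6 from 170554302 to 170572870 with 8 exons. HPRT1 (ENSG00000165704.15) is on the plus strand of chromosome X from 134460165 to 134520513 with 9 exons.

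Several of these genes have near-identical copies elsewhere in the genome, and the values of a library in which only uniquely mapped reads were kept can depend on them. Stretches of 30 coding bases from the longest coding exon of 2 references are shown beside the closest stretch of a related gene, 5′ to 3′ in the sense of the transcript, with capitals where the paired stretches differ. The bases are those of GENCODE 44 transcripts. The GAPDH stretch lies in exon 8 at chr12:6537584-6537613 on the plus strand, and that of the processed pseudogene GAPDHP1 at chrX:39787582-39787611 on the minus strand.
GAPDH: accaCagtccaTgccatcactgccacccag
GAPDHP1: accaTagtccaCgccatcactgccacccag
The PPIA stretch lies in exon 4 at chr7:44799702-44799731 on the plus strand, and that of the processed pseudogene PPIAP22 at chr21:18857968-18857997 on the plus strand.
PPIA: ggtggtgacttcacacgccataatggcact
PPIAP22: ggtggtgacttcacacgccataatggcact
The GAPDH and GAPDHP1 stretches differed at 2 of 30 bases, whereas the PPIA and PPIAP22 stretches differed at 0.

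Over whole canonical transcripts, windows of 50 bases that occur without a mismatch in a transcript of another gene made up 20.4% of GAPDH, 19.0% of PPIA and 10.9% of ACTB. They made up 1.77% of GUSB and 1.55% of TBP, and no window of HPRT1 was shared. At 100 bases the share was 12% for PPIA and 0.175% for ACTB, and it was 0 for GAPDH, TBP, HPRT1 and GUSB. At 150 bases PPIA still shared 7.23% of its windows, all of them with PPIAP22. YWHAZ shared 11.8%, 4.09% and 1.56% of its windows at the 3 lengths, and its pseudogene YWHAZP3 held 275 of the 585 shared windows at 50 bases, 142 of 201 at 100 and 72 of 76 at 150. The read length is not given in the sources used here, so how many reads could not be placed was not tested.

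The 7 references fell into 3 levels of TPM, a measure of transcript abundance that corrects for transcript length and sums to a fixed total per library. GAPDH and ACTB were at the top, with mean levels of 8911 and 8744 TPM over the 4 libraries, ranks 9 and 10 of all genes. YWHAZ and PPIA followed at 988 and 915 TPM, ranks 111 and 127. GUSB, HPRT1 and TBP were lower, at 48.0, 33 and 29.9 TPM. The ranges of GAPDH and ACTB overlapped, as did those of YWHAZ and PPIA, and of HPRT1 and TBP, whereas the range of GUSB lay above that of HPRT1. Within libraries, HPRT1 lay above TBP in every one. YWHAZ lay above PPIA in all but oeDAZL replicate 2, and GAPDH above ACTB in all but control replicate 2. GAPDH and ACTB together took between 1.69% and 1.84% of the TPM of a library.

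GAPDH was listed at 8674 and 8458 TPM in control cells against 9105 and 9407 TPM in oeDAZL cells. The oeDAZL values were both above the control values. The difference, oeDAZL minus control, was 0.11 on the log2(TPM + 1) scale (SE 0.06), a fold of 1.08 with a 95% confidence interval from 0.972 to 1.2, and limma, a linear model fitted across the 16687 genes with a mean of at least 1 TPM, gave an unadjusted P = 0.126 and an adjusted p = 0.368. ACTB was listed at 8194 and 8841 TPM in control cells against 8945 and 8998 TPM in oeDAZL cells. The groups did not overlap, but the control libraries were farther apart than the oeDAZL libraries, and the log2 difference was 0.08 (SE 0.07, adjusted p = 0.563 in limma). It was 0.02 without control replicate 1 and 0.13 without control replicate 2.

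The low-level references HPRT1 and TBP had higher means in the oeDAZL libraries, by amounts within their error. HPRT1 was listed at 31.0 and 32.3 TPM in control cells against 35.7 and 32.8 TPM in oeDAZL cells. TBP was listed at 29.99 and 27.6 TPM in control cells against 30.05 and 32.0 TPM in oeDAZL cells. Neither gene overlapped between the groups, although for TBP the higher control library and the lower oeDAZL library nearly coincided. The log2 differences were 0.11 (SE 0.08, adjusted p = 0.483 in limma) for HPRT1 and 0.10 (SE 0.08, adjusted p = 0.520) for TBP. That of HPRT1 was 0.05 without oeDAZL replicate 1 and 0.17 without oeDAZL replicate 2. That of TBP was 0.16 without control replicate 1, 0.05 without control replicate 2 and 0.06 without oeDAZL replicate 2.

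YWHAZ and GUSB had lower means in the oeDAZL libraries, and PPIA was nearly unchanged. YWHAZ was listed at 1068 and 1002 TPM in control cells against 1007 and 875 TPM in oeDAZL cells. The groups overlapped, and oeDAZL replicate 2 was the lowest of the 4 libraries. The log2 difference of YWHAZ was −0.14 (SE 0.08, adjusted p = 0.371 in limma), the largest in size of the 7 references, and it was −0.24 without oeDAZL replicate 1, −0.04 without oeDAZL replicate 2 and −0.09 without control replicate 1. GUSB was listed at 49.7 and 48.8 TPM in control cells against 46.1 and 47.4 TPM in oeDAZL cells, without overlap. Its log2 difference was −0.07 (SE 0.07, adjusted p = 0.557). PPIA was listed at 895 and 932 TPM in control cells against 930 and 901 TPM in oeDAZL cells. These values interleaved, and the log2 difference was 0.00 (SE 0.05, adjusted p = 0.975), a fold of 1.003 with a 95% confidence interval from 0.918 to 1.10. Its log2 difference was −0.02 without control replicate 1 or oeDAZL replicate 1, and 0.03 without either of the other libraries.

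**Figure D1:**
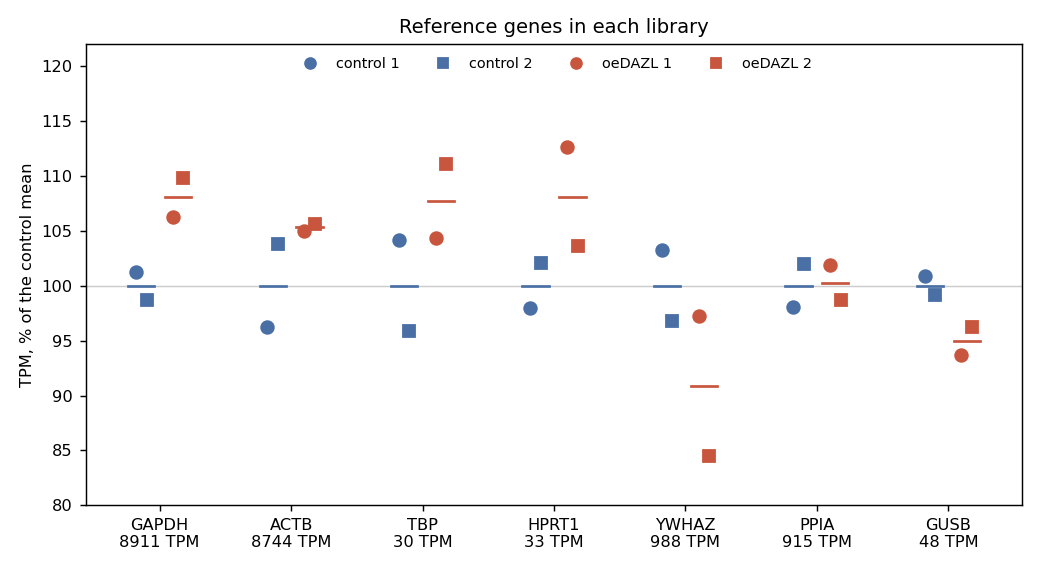
TPM of each reference gene in each library, in percent of its control mean, on a vertical axis that does not start at 0; circles and squares are replicates 1 and 2, short lines are group means (n = 2 libraries per group), and the mean TPM over 4 libraries stands under each name. GAPDH, ACTB, TBP and HPRT1 have higher oeDAZL means, YWHAZ and GUSB have lower ones, and PPIA interleaves.

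Of the 7 references, 5 were higher and 2 lower in mean on the log2 scale, and 0 passed an unadjusted P of 0.05 in limma or an adjusted p of 0.05. Among all tested genes, 20.2% passed the unadjusted threshold, 5.02% higher and 15.2% lower in oeDAZL. The groups did not overlap for 5 of the 7 references, beside 54.4% of all tested genes. The 95% confidence intervals of the 7 folds ran from 0.793 to 1.24, so changes of that size were not detectable with 2 libraries per group. With 2 libraries on each side, the smallest p of an exact permutation test is 0.33. Dividing TPM by median-of-ratios size factors, another scaling, raised the log2 differences of the references by 0.10, and GAPDH and TBP then passed the unadjusted threshold but not the adjusted one (adjusted p = 0.191 and 0.233 in limma), while GUSB turned to 0.03.

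The spread of each reference was also described without a test. The coefficient of variation of TPM over the 4 libraries was 2.08% for PPIA, 3.27% for GUSB, 4.26% for ACTB, 4.79% for GAPDH, 5.94% for HPRT1, 5.99% for TBP and 8.22% for YWHAZ. PPIA had the smallest spread over the 4 libraries and YWHAZ the largest, but single libraries moved this order. Without control replicate 1 the SD of log2 TPM was 0.013 for ACTB and 0.027 for PPIA, and without oeDAZL replicate 2 it was 0.052 for YWHAZ and 0.103 for HPRT1. On the log2(TPM + 1) scale 2.49% of tested genes had a smaller SD over the 4 libraries than PPIA, 17.0% a smaller one than GAPDH and 40.8% a smaller one than YWHAZ. With median-of-ratios scaling the SD of log2 TPM was smallest for GUSB, at 0.023, and was 0.080 for PPIA, 0.091 for YWHAZ and 0.124 for GAPDH, so the order depended on the scaling too.

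The geNorm M value, the mean SD over libraries of the log2 ratio of a gene to each of the other references, does not depend on the scaling of a library. It was 0.083 for PPIA, 0.092 for both GAPDH and ACTB, 0.102 for HPRT1, 0.105 for GUSB, 0.11 for TBP and 0.155 for YWHAZ. A lower value marks a gene that keeps its ratio to the others. Without oeDAZL replicate 2 the M of YWHAZ was 0.089, so that 1 library set the position of YWHAZ at the end of the order.

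Ratios between the references give the change of 1 reference as seen with another. Relative to GAPDH, YWHAZ differed by −0.25 on the log2 scale between oeDAZL and control (SE 0.09, unadjusted P = 0.0295, adjusted p = 0.116 in limma). In the libraries there were 12.3 and 11.8 TPM of YWHAZ per 100 TPM of GAPDH in the controls, and 11.1 and 9.30 in oeDAZL. GUSB relative to GAPDH differed by −0.19 (SE 0.07, unadjusted P = 0.0296, adjusted p = 0.116), from 5.73 and 5.78 TPM of GUSB per 1000 TPM of GAPDH to 5.07 and 5.04. The control libraries lay above the oeDAZL libraries for both ratios.

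Of the 21 pairs, 3 passed an unadjusted P of 0.05 in limma, and 0 passed after adjustment. The 3 were the pairs of GAPDH with YWHAZ and with GUSB and that of HPRT1 with YWHAZ (log2 difference −0.25, SE 0.10, adjusted p = 0.162). Among all tested genes, 32.8% passed the unadjusted threshold relative to GAPDH and 24.4% relative to HPRT1, so such a pass was common. The ratios of GAPDH, ACTB, TBP and HPRT1 to each other differed by at most 0.04 on the log2 scale, with wide intervals. ACTB relative to GAPDH, for example, differed by −0.04 with a 95% confidence interval from −0.23 to 0.16. The P-value of a pair depended on which gene was the denominator, because limma sets its error from all genes divided by that reference. With the other gene of each pair as the denominator, a choice made after seeing the data, 1 pair passed, GAPDH relative to GUSB (adjusted p = 0.229 in limma), and GAPDH relative to YWHAZ did not (adjusted p = 0.752). Without oeDAZL replicate 2, 0 pairs passed, and without control replicate 1, 1 pair did.

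**Figure D2:**
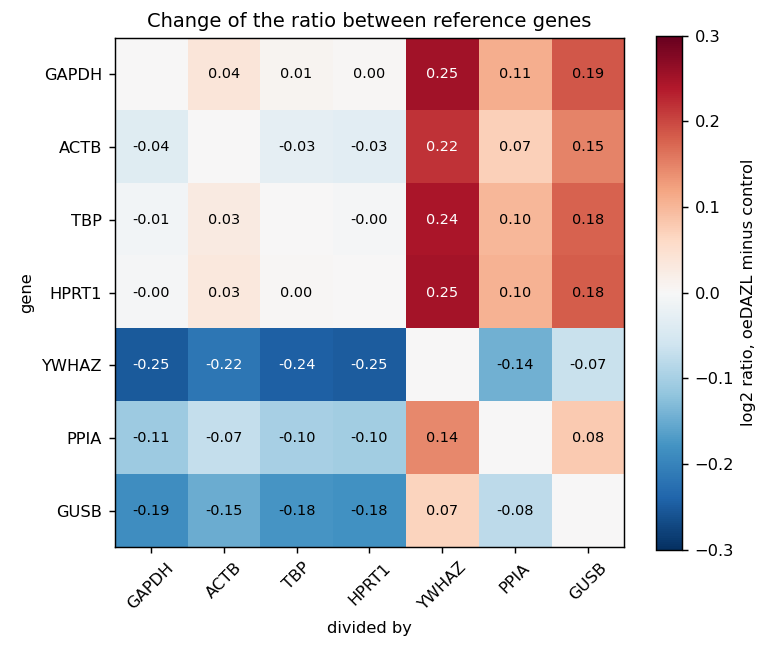
Change of the log2 ratio of the gene in each row to the gene in each column, oeDAZL minus control (n = 2 libraries per group), with red for a higher and blue for a lower ratio in oeDAZL. The columns for YWHAZ and GUSB hold the highest values, up to 0.25, while GAPDH, ACTB, TBP and HPRT1 stay within 0.04 of each other.

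The choice of reference moved the whole distribution of genes. On the TPM scale the median log2 difference of the tested genes was −0.08. It was −0.19 relative to GAPDH, −0.19 relative to HPRT1, −0.18 relative to TBP and −0.15 relative to ACTB. Relative to PPIA it was −0.08, relative to GUSB −0.0044 and relative to YWHAZ 0.06. The share of genes with a lower value in oeDAZL was 65.3% on the TPM scale, 82.6% relative to GAPDH, 50.9% relative to GUSB and 38.7% relative to YWHAZ. Only relative to YWHAZ did higher values outnumber lower ones. Each median relative to 1 reference is the TPM median minus the log2 difference of that reference, so it carries the error of that difference. The difference of YWHAZ was −0.14, and −0.04 without oeDAZL replicate 2.

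Called genes, which passed both a 2-fold difference and an unadjusted P of 0.05, numbered 21 higher and 94 lower on the TPM scale, 0.689% of those tested. Relative to GAPDH they numbered 13 higher and 158 lower (1.02%). All 13 and 94 of the 158 were among the genes called on the TPM scale, so dividing by GAPDH dropped 8 of the higher calls and added 64 lower ones. Without control replicate 2 the counts were 88 higher and 237 lower on the TPM scale and 61 and 364 relative to GAPDH, and leaving out either oeDAZL library or control replicate 1 also raised the higher calls by over 1.5 times on both scales. The 3 references with similar log2 differences gave similar counts, with 18 higher and 140 lower relative to ACTB (0.947%), 15 and 162 relative to TBP (1.06%), and 19 and 176 relative to HPRT1 (1.17%).

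The other references gave fewer lower calls. Relative to PPIA 21 genes were higher and 101 lower (0.731%), and relative to GUSB 29 were higher and 70 lower (0.593%). Relative to YWHAZ 51 were higher and 64 lower (0.689%), so that lower genes made up 55.7% of the calls, beside 92.4% relative to GAPDH and 81.7% on the TPM scale. The mean of all 7 references gave 21 higher and 105 lower (0.755%).

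Genes past the unadjusted P of 0.05 at any fold made up 32.8% of those tested relative to GAPDH, 27.8% relative to TBP, 24.4% relative to HPRT1 and 20.7% relative to ACTB. They made up 21.6% relative to the mean of all 7, 18.5% relative to GUSB, 17.1% relative to PPIA and 11% relative to YWHAZ. After adjustment, 10 genes passed on the TPM scale, 1226 relative to GAPDH and 364 relative to YWHAZ. The error of the reference itself is common to all ratios made with it, and a test gene by gene does not carry it as shared, so these adjusted counts are not gains in precision.

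**Figure D3:**
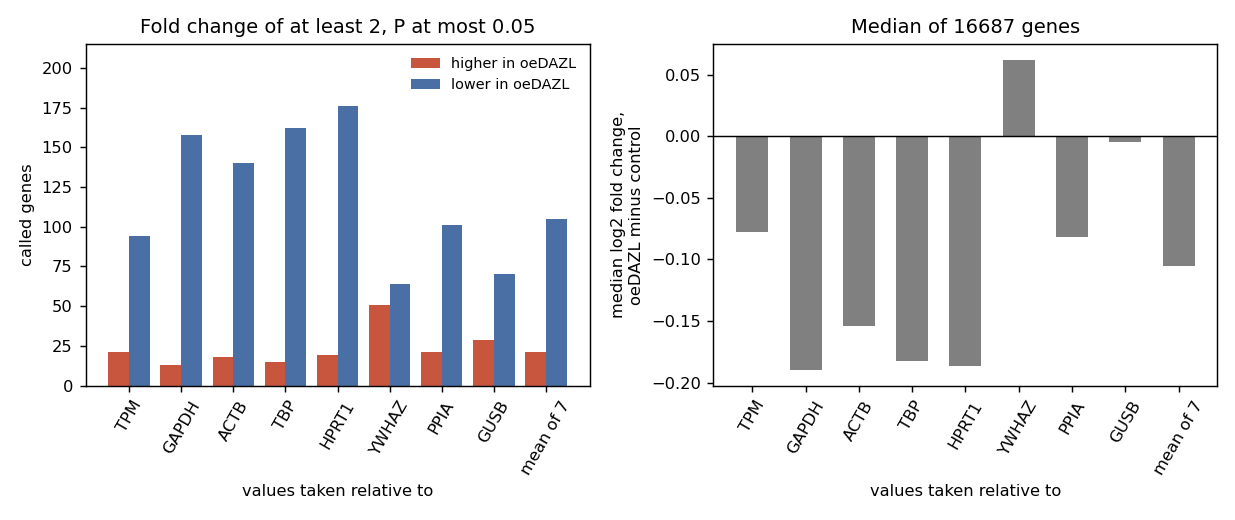
Left, genes called higher (red) or lower (blue) in oeDAZL on the TPM scale, relative to each reference and relative to the mean of all 7; right, the median log2 difference, oeDAZL minus control, of all tested genes on the same scales. Lower calls run from 64 relative to YWHAZ to 176 relative to HPRT1, and the median is above 0 only relative to YWHAZ.

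For the transcripts that the study assayed relative to GAPDH, the reference decided the sign of the smallest differences and left the direction of the larger ones. The study assayed TRIM71 in oeDAZL PGCLCs from H9 and in NT2 cells, a germline tumor line. In both it reported less TRIM71 transcript relative to GAPDH with DAZL overexpressed, and in the PGCLCs also less protein. With DAZL silenced, the study reported a moderate increase of TRIM71 expression. It assayed DAZL in hPGCLCs with DAZL silenced, and the marker transcripts in teratomas grown from NT2 cells. The values below are from the H9 libraries, so they do not repeat the marker assays. TRIM71, an RNA-binding ubiquitin ligase and a target of let-7, was listed at 84.6 and 82.7 TPM in control cells against 90.8 and 88.7 TPM in oeDAZL cells. Per 1000 TPM of GAPDH these were 9.75 and 9.78 in the controls and 9.97 and 9.43 in oeDAZL, which overlapped. Per 1000 TPM of YWHAZ they were 79.2 and 82.6 in the controls and 90.2 and 101 in oeDAZL, which did not.

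The log2 difference of TRIM71 was 0.10 on the TPM scale (SE 0.06, adjusted p = 0.373 in limma). Relative to GAPDH it was −0.01, with a 95% confidence interval from −0.16 to 0.14 (adjusted p = 0.913). It was 0.24 relative to YWHAZ (SE 0.17, adjusted p = 0.666) and 0.17 relative to GUSB (SE 0.06, unadjusted P = 0.0274, adjusted p = 0.219). Relative to the other 4 references it lay between −0.01 and 0.10. TRIM71 was called on none of the 9 scales. The lower TRIM71 transcript that the study reported relative to GAPDH was thus not seen in these libraries, and the reason was not tested.

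KDR, the receptor of vascular endothelial growth factor on mesodermal and endothelial cells, was listed at 12.6 and 12.7 TPM in control cells against 8.39 and 8.23 TPM in oeDAZL cells. The log2 difference was −0.55 on the TPM scale (SE 0.11, adjusted p = 0.0962 in limma). It was −0.66 relative to GAPDH (SE 0.11, adjusted p = 0.0360) and −0.41 relative to YWHAZ (SE 0.20, adjusted p = 0.399). KDR was lower in oeDAZL on every scale used. It passed the adjusted threshold relative to GAPDH, TBP and HPRT1 and on no other scale (adjusted p = 0.0849 in limma relative to the mean of all 7). Relative to those references 1226, 742 and 821 tested genes passed it, beside 10 on the TPM scale. The error of the reference, shared by all its ratios, was not carried as shared there. TBXT, the mesodermal transcription factor brachyury, was listed at 2.49 and 1.25 TPM in control cells against 0.319 and 0.546 TPM in oeDAZL cells. Its log2 difference of −0.97 on the TPM scale fell short of the fold of 2, that of −1.09 relative to GAPDH passed it, and that of −0.83 relative to YWHAZ did not. The means of TBXT were 1.87 TPM in control and 0.432 TPM in oeDAZL cells, and the 1 added before the log2 shrank this difference. Whether TBXT passed the fold thus depended on the added 1 as well as on the reference.

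AFP, the fetal plasma protein of endoderm, was listed at 36.3 and 13.1 TPM in control cells against 8.91 and 11.6 TPM in oeDAZL cells. Control replicate 1 stood above the other 3 libraries. Its log2 difference ran from −1.15 relative to GAPDH to −0.90 relative to YWHAZ, and AFP was called with GAPDH and, for its fold or its P, not with YWHAZ or GUSB. The adjusted p of AFP in limma was 0.0451 relative to HPRT1 and 0.00037 relative to YWHAZ. On these scales 821 and 364 tested genes passed an adjusted p of 0.05. Its SE was 0.42 on the TPM scale, 0.31 relative to HPRT1 and 0.19 relative to YWHAZ. The fit relative to YWHAZ took its error from the trend over all genes. The spread of AFP between libraries thus did not enter, and that adjusted p does not measure it. PAX6, a neural transcription factor, was listed at 3.83 and 1.14 TPM in control cells against 0.0967 and 0.558 TPM in oeDAZL cells, and was called on all 9 scales, with log2 differences from −1.41 relative to GAPDH to −1.16 relative to YWHAZ. At these low levels the 1 added before the log2 shrank the differences of PAX6 too.

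The remaining 3 marker transcripts were called on no scale. The neural adhesion molecule NCAM1 was listed at 4.22 and 3.80 TPM in control cells against 2.55 and 2.34 TPM in oeDAZL cells, with log2 differences from −0.65 relative to GAPDH to −0.40 relative to YWHAZ. MAP2, a microtubule protein of neurons, was listed at 10.8 and 7.61 TPM in control cells against 6.30 and 6.94 TPM in oeDAZL cells, with log2 differences from −0.52 to −0.27 on the same scales. The endodermal transcription factor GATA6 was listed at 10.9 and 8.76 TPM in control cells against 8.70 and 8.68 TPM in oeDAZL cells, and its log2 difference was −0.26 relative to GAPDH and −0.01 relative to YWHAZ.

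DAZL itself, the overexpressed gene, was listed at 0 and 0.0333 TPM in control cells against 102 and 101 TPM in oeDAZL cells. Its log2 difference lay between 6.54 relative to GAPDH and 6.79 relative to YWHAZ, and it depended on the pseudocount, with 9.67 relative to GAPDH at a pseudocount of 0.1. Of the 9 assayed transcripts, DAZL included, 3 were called on the TPM scale, 4 relative to GAPDH and 2 relative to YWHAZ. Among all tested genes, 0.689% were called on the TPM scale, 1.02% relative to GAPDH and 0.689% relative to YWHAZ.

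**Figure D4:**
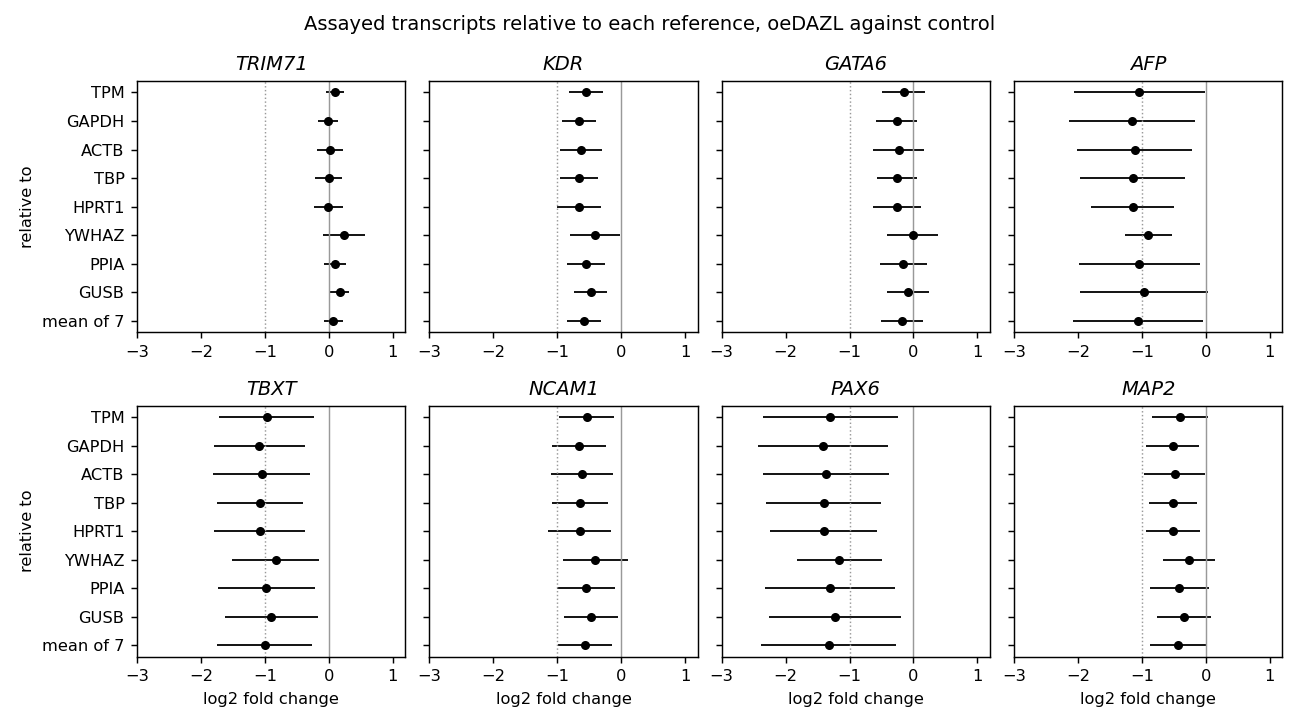
Log2 difference, oeDAZL minus control, of 8 assayed transcripts (DAZL is off the scale) on the TPM scale, relative to each reference and relative to the mean of all 7; points are limma estimates, lines 95% confidence intervals, and the dotted line a fold of 2 lower. TRIM71 lies near 0 relative to GAPDH and at 0.24 relative to YWHAZ, while KDR lies below 0 throughout.

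Other genes in use as references were counted in the same way. Among all tested genes, 5.02% were higher and 15.2% lower at an unadjusted P of 0.05 in limma. Of 18 other classic reference genes, 3 were higher and 1 lower at an unadjusted P of 0.05 in limma, with a median log2 difference of 0.02. B2M, the light chain of MHC class I, was listed at 45.8 and 49.8 TPM in control cells against 70.8 and 67.6 TPM in oeDAZL cells, a log2 difference of 0.53 (SE 0.07, adjusted p = 0.0896 in limma). TFRC, the transferrin receptor, and LDHA, lactate dehydrogenase A, had log2 differences of 0.32 and 0.36, and POLR2A, the largest subunit of RNA polymerase II, one of −0.21. Of 11 genes proposed as references from RNA-seq surveys, 0 passed the unadjusted threshold, with differences from −0.09 to 0.15 and a median of −0.0040.

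The families of the 7 genes were described in the same way, beside the same shares of 5.02% higher and 15.2% lower among all tested genes. Of 15 other glycolysis genes, 3 were higher and 2 lower at an unadjusted P of 0.05 in limma, with a median log2 difference of 0.05. The hexokinase HK1 (0.30) and LDHA were higher, as was ENO1 (0.21), an enolase named because its values were seen, whereas the phosphofructokinase subunits PFKM (−0.26) and PFKL (−0.18) were lower. Of 20 actins and actin regulators, 4 were higher and 1 lower, with a median of 0.06. ARPC5, a subunit of the Arp2/3 complex, had a log2 difference of 0.54, the skeletal actin ACTA1 0.52, profilin PFN2 0.23 and thymosin TMSB4X, named because its values were seen, 0.27. The smooth muscle actin ACTA2 differed by −0.59, from 308 and 343 TPM in control cells to 210 and 221 TPM in oeDAZL cells.

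At the unadjusted P of 0.05 in limma, 5.02% of all tested genes were higher and 15.2% lower. Of 16 TFIID genes, 2 were higher at that threshold, TAF13 (0.35) and the TBP-like TBPL1 (0.24), and the median was 0.03. Of 16 genes of purine salvage and synthesis, 3 were higher, namely ADSL (0.33), PPAT (0.19) and ADSS2 (0.18), and IMPDH1 (−0.40), an enzyme of guanine nucleotide synthesis, was lower, with a median of 0.01. Of the 6 other 14-3-3 genes, 0 passed, and their median was 0.05. Of 11 cyclophilins, PPIC (−0.22) and PPIL2 (−0.22) were lower, and the median was −0.04.

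The lysosomal hydrolases, the family of GUSB, had the lowest median of the families. Of 18 genes, 3 were higher and 8 lower at the unadjusted threshold, beside 5.02% higher and 15.2% lower among all tested genes. Their median was −0.19, beside −0.08 for all tested genes. The iduronidase IDUA was listed at 10.8 and 8.81 TPM in control cells against 4.82 and 4.80 TPM in oeDAZL cells, a log2 difference of −0.89 (SE 0.15, adjusted p = 0.0896 in limma). GALNS and SGSH, sulfatases, differed by −0.44 and −0.37. In these lists, 0 genes passed an adjusted p of 0.05 in limma. With median-of-ratios scaling, chosen for the lists after seeing the data, the medians rose by about as much as the references did, that of the cyclophilins turned to 0.06, and the hydrolases had 4 higher and 5 lower genes.

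**Figure D5:**
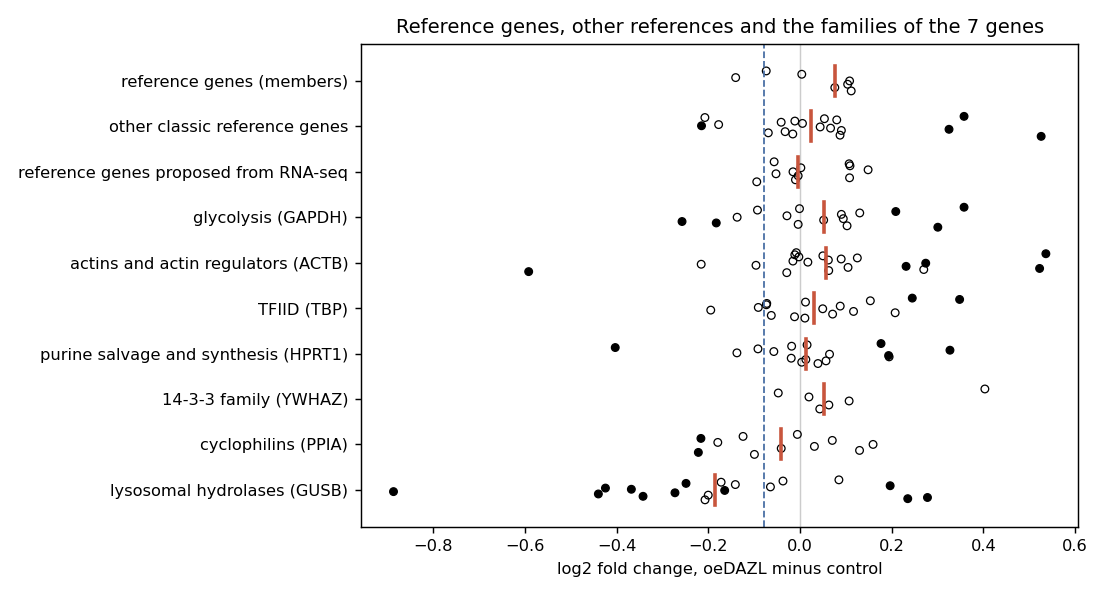
Log2 difference, oeDAZL minus control, of each gene of the reference lists and of the families of the 7 references; filled points have an unadjusted P of at most 0.05 in limma, red bars are list medians and the dashed line is the median of all tested genes. The lysosomal hydrolases have the lowest median, −0.19, and none of the 7 members is filled.

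Some entries named as pseudogenes of the references were also listed above 0, and whether their reads came from the references was not tested. The 11 GUSB entries summed to between 33.3 and 49.1 TPM, or 72.3% to 98.8% of the level of GUSB itself in the same library. The largest, GUSBP11, which GENCODE 44 lists as a long non-coding RNA gene, was listed at 25.9 and 18.9 TPM in control cells against 16.6 and 18.8 TPM in oeDAZL cells. The 88 PPIA entries summed to 9.18% to 11.1% of PPIA, and PPIAP22 was listed at 50.2 and 62.4 TPM in control cells against 56.9 and 44.3 TPM in oeDAZL cells. These groups overlapped for PPIAP22.

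The 62 GAPDH entries came to at most 0.282% of GAPDH. GAPDHP1 was listed at 17.98 and 16.3 TPM in control cells against 20.2 and 20.8 TPM in oeDAZL cells, a log2 difference of 0.25 (SE 0.09, unadjusted P = 0.0393, adjusted p = 0.225 in limma). The 8 YWHAZ entries came to at most 1.82% of YWHAZ and the 10 ACTB entries to at most 0.0349% of ACTB. The 3 HPRT1 entries were listed at 0, and there was none for TBP. Values of genes with such copies are uncertain, since reads could be assigned to either.

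The genes whose log2 ratio to a reference had the smallest SD over the 4 libraries, among 9915 genes with a mean of at least 10 TPM and no value of 0, were ZNF217 (SD 0.0029), LZTFL1 (0.0060) and PIP4K2A (0.0070) for GAPDH. For the others the closest were LAMP2 for ACTB (0.0050), PDS5B for TBP (0.012), LARS2 for HPRT1 (0.0037), SBF2 for YWHAZ (0.014), CDKN2AIPNL for PPIA (0.0028) and POLR2M for GUSB (0.0024). With 4 libraries many genes come close, and 597 lay within 0.05 of GAPDH, 1163 of GUSB and 128 of YWHAZ.

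Markers of the labelled cells were checked once. Of 11 PGC markers, DDX4 was listed at 0 in all 4 libraries and NANOG and CD38 were below 1 TPM in each. Of the 8 that were tested, POU5F1 and PDPN were higher at an unadjusted P of 0.05 in limma. The other 6 had lower values, 0 of them at that threshold, and the median log2 difference was −0.07. The summed level of the 11 was 118 to 124 TPM in the controls and 137 to 139 TPM in oeDAZL. Within it, PDPN was at 32.9 and 49.7 TPM in control cells and 58.5 and 52.5 TPM in oeDAZL cells. POU5F1 was at 13.6 and 10.6 against 22.4 and 20.4 TPM. Counts in brackets below are at the same threshold, beside 5.02% higher and 15.2% lower among all tested genes. The summed level was 3478 to 3648 TPM in the controls and 3437 to 3481 TPM in oeDAZL for 8 mesoderm and mesenchyme markers (1 higher, 3 lower), 2398 to 2629 and 2396 to 2446 TPM for 7 amnion and trophoblast markers (0 higher, 3 lower), 447 to 585 and 641 to 695 TPM for 5 neural markers (1 higher, 1 lower), and 141 to 227 and 146 to 178 TPM for 5 endoderm markers (0 higher, 1 lower). The most abundant genes weighed most in these sums. Mean TPM in control and oeDAZL cells was 300 and 424 for NES and 204 and 237 for TUBB3. The neural markers PAX6, MAP2 and SOX1 had lower means in oeDAZL. HAND1 (1000 and 1249) and VIM (1324 and 1504) had higher means in oeDAZL. The other mesoderm and mesenchyme markers had lower ones, among them COL3A1 (531 and 222) and COL1A1 (690 and 471). Mitochondrial transcripts took 12.6% to 14.1% of the TPM. In bulk RNA, fewer cells of a type and less RNA per cell cannot be told apart, and the part of cell composition in the levels of the references was not tested.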

How the data were processed

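RNA sequencing of 2 control and 2 oeDAZL libraries was analysed. The authors deposited TPM per gene (an abundance per transcript length, scaled to a fixed total in each library), each library in its own column. Their methods removed adaptors with TrimGalore, mapped reads to hg38 with HISAT2 (v2.1.0), kept unique alignments and used StringTie (v2.1.4) for quantification. The annotation release and read length are not given in the sources used here. TPM keeps no depth, so read depth is unknown and no counting interval was computed. The number of libraries limits the precision.

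Of 65003 entries, 45 Y-chromosome copies of pseudoautosomal genes and 18 repeats were left out. The 16687 genes with a mean of at least 1 TPM were fitted with limma (v3.58.1, R v4.3.3, trend on mean expression) on log2(TPM + 1), with no covariate and Benjamini-Hochberg adjustment over all genes tested. A gene was called when it passed both a 2-fold difference and an unadjusted P-value of 0.05. For values relative to a reference, the log2(TPM + 1) of that reference, centred over the 4 libraries, was subtracted from every gene before the fit. A symbol with several entries was represented by the entry with the highest mean TPM. In simulated libraries of 16687 genes with 200 genes changed by 2 on the log2 scale, 100% of those were recovered with the correct sign on the TPM scale. The changed genes were drawn from levels well above the filter of 1 TPM. Each gene had a spread smoothed over expression level in place of its own. The simulation thus checked the fit, and not its power for genes of low level or wide spread. Replicate numbers were not treated as pairs in the main fit. The replicate differences of both groups correlated at −0.10 across genes, and a weak correlation cannot exclude that the libraries were prepared in pairs.

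The 7 members, the 16 gene lists and the tests were chosen with earlier results of these data known. Named were the members, 9 transcripts that the study assayed relative to GAPDH, up to 4 genes of each list by smallest P-value among those passing an unadjusted P-value of 0.05, the genes closest in pattern to each member, and pseudogene entries. The alternatives were other pseudocounts, filters, scalings, references and thresholds, the replicate block and each library left out. Some genes and sequences that these rules name are not reported here. The 6 miRNA sequencing samples were not analysed here.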

Additional observations from a re-analysis of the deposited data

How the results depend on the processing

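Over 84 refits of the 7 references (12 alternatives each), 0 gave an adjusted p under 0.05 in limma, the lowest being 0.0924. PPIA ranged from −0.0247 to 0.0325 with 1 library left out (−0.0189 without oeDAZL replicate 1), and GUSB to 0.0257 with median-of-ratios scaling. DAZL kept its direction and its call throughout. TRIM71 relative to GAPDH ranged from −0.0516 to 0.0291 with 1 library left out and turned, with other references, to 0.0245 (ACTB), 0.241 (YWHAZ), 0.0966 (PPIA), 0.174 (GUSB) and 0.0733 (the mean of all 7). The cause was not tested.

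Genes called higher and lower on the TPM scale, 21 and 94, became 55 and 267 with a pseudocount of 0.1, 6 and 23 with the filter raised to a mean of 5 TPM, 41 and 52 with quantile normalization, and 3 and 2 with an adjusted p. Leaving out 1 library gave 35 to 88 higher and 75 to 237 lower, the most without control replicate 2; the lone library was then assumed to vary like the other group. Relative to GAPDH, 13 and 158 became 32 and 412 with a pseudocount of 0.1, 3 and 41 with the higher filter, and 6 and 71 with an adjusted p. Other references gave 51 and 64 (YWHAZ), 21 and 101 (PPIA), 29 and 70 (GUSB) and 21 and 105 (the mean of all 7). Leaving out 1 library gave 24 to 61 higher and 153 to 364 lower. The 3 pairs of references became 0 without limma's trend and 1 with the other gene as denominator, chosen after seeing the data, and 0 to 4 with 1 library left out.

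With the replicate block, 26 and 99 genes were called on the TPM scale, 14 and 167 relative to GAPDH, and 2 pairs passed. Whether the replicate numbers pair the libraries is unknown, and the block changed no call of a reference, TRIM71 or DAZL. Crossed pairing, chosen after seeing the data, gave 28 and 107 on the TPM scale and 19 and 178 relative to GAPDH. With median-of-ratios scaling the SD of log2 TPM became 0.124 for GAPDH, 0.123 for ACTB, 0.0797 for PPIA and 0.0230 for GUSB. Read depth is unknown, so what it limits cannot be stated.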
